A study of Mus musculus with 3 samples.

Results

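The 10 genes described here encode the kinase complex that starts autophagy and the receptors that hand cargo to it. They are Ulk1, Ulk2, Rb1cc1, Atg13, Atg101, Sqstm1, Nbr1, Optn, Tax1bp1 and Calcoco1, out of 21631 genes annotated as protein-coding on the numbered chromosomes and X. Sites of the forkhead transcription factor Foxp3 were collected over each gene and 5 kb beyond both of its ends, in mm10 coordinates. The choice of genes used no measured value, but it was made with earlier results of these data known. The region of the 10 genes held 130 of the 556535 peaks of replicate 1 and 23 of the 95135 peaks of replicate 2.

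Foxp3 occupancy was profiled by CUT&RUN, in which an antibody tethers a nuclease that cuts out the DNA beneath its target, in mouse bone marrow-derived macrophages. The cells were cultured with the growth factor M-CSF and fixed with 0.1% formaldehyde for 2 min. The labels list 3 samples, made up of 2 Foxp3 libraries (replicates 1 and 2, antibody FJK-16s) and 1 library with an isotype IgG, whose values were not analysed here. The series title speaks of stimulation with DAMPs, damage-associated molecules, from brain. No label ties this treatment, a strain, an age or a genotype to a library, or says whether the replicates came from separate cultures. Peaks mark DNA that was cut free and not RNA, so the labelled cell type could not be checked against its markers.

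Autophagy encloses cytoplasm or damaged organelles in a membrane that delivers them to the lysosome. The Ulk kinase complex sits at its start and is switched by nutrient and energy signals. Most of the cargo receptors bind ubiquitin-tagged material at one end and LC3-family proteins of the growing membrane at the other. In macrophages several of these receptors are known for clearing intracellular bacteria, aggregates or damaged mitochondria.

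Replicate 1 held 33294105 fragments and replicate 2 held 34898401. Replicate 1 listed 5.85 times as many peaks, so the larger count does not come with more fragments. Fold enrichment below is the authors' deposited ratio of fragments over a peak's summit to the background of the same library. Pileup is the deposited number of fragments over that summit. Peaks of the replicates were called shared where the overlap took up at least 50% of each. The fragment size given with the peaks was 130 bp in replicate 1 and 180 bp in replicate 2, and the shortest listed peaks had these lengths. How far this setting bears on peak lengths, pileups and shared calls was not tested, so lengths and pileups are best compared within a replicate. Over all 31253 shared pairs, the median ratio of replicate 1 fold to replicate 2 fold was 1.84. An SD of fold over the replicates therefore includes this difference between the libraries. No IgG value stands beside any peak, so whether a site depends on the Foxp3 antibody was not tested.

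Promoters of 9 of the 10 genes were matched in the RefSeq promoter table of build GRCm38.p6 (mm10), and Rb1cc1 had no entry. The 5 sequences below are the 250 bases before the start, read 5′ to 3′ on the strand of the gene. Ulk2 is shown as an example that peaks of both replicates covered fully, as they did before the second start of Tax1bp1. Atg101 and Atg13 are examples that peaks of both replicates reached, as they did at Ulk1 and before the first starts of Nbr1 and Tax1bp1. Sqstm1 and Calcoco1 are examples that a peak of replicate 1 alone reached. The same held at Optn, although a replicate 2 peak lay after its start. Capitals mark a match to the ETS word CCGGAAGT (ACTTCCGG on the other strand).
Ulk2 (chr11:61855093-61855342, minus strand): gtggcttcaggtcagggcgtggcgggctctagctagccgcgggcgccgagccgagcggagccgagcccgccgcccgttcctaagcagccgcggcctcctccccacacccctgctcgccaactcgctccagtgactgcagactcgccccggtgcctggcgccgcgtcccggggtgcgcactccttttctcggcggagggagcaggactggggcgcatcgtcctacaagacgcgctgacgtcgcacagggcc
Atg101 (chr15:101284051-101284300, plus strand): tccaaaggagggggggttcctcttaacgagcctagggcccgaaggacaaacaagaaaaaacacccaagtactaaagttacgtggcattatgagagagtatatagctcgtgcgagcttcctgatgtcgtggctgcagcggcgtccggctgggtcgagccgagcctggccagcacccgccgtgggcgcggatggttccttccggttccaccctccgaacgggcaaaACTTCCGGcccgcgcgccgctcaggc
Atg13 (chr2:91710593-91710842, minus strand): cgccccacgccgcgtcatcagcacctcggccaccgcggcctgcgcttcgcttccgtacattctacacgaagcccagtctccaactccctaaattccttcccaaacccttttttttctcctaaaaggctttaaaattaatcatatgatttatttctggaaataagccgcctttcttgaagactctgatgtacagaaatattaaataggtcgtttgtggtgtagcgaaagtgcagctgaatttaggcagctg
Sqstm1 (chr11:50210821-50211070, minus strand): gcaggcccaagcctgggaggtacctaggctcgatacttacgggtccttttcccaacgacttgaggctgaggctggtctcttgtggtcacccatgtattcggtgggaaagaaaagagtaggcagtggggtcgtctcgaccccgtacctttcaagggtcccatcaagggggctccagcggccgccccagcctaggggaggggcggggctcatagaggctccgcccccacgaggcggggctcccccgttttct
Calcoco1 (chr15:102722179-102722428, minus strand): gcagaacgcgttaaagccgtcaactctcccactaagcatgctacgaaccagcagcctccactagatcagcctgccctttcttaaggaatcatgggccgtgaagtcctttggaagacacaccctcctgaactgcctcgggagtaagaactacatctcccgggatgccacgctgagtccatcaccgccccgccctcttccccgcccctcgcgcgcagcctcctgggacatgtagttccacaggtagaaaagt
Of these 250 bases, replicate 1 peaks covered 100% in Ulk2 and Atg101, 42.0% in Atg13, 64.4% in Sqstm1 and 94.4% in Calcoco1. Replicate 2 peaks covered 100% in Ulk2 and Atg13, 60.8% in Atg101, and 0% in Sqstm1 and Calcoco1. The share of G and C was 72.8% in Ulk2, 61.2% in Atg101, 46.4% in Atg13, 63.2% in Sqstm1 and 57.6% in Calcoco1.

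A search of sequence words on both strands covered 300 bases, from 250 before to 50 after each start, in the 11 promoters listed for the 9 matched genes. None held the forkhead word TGTTTAC, which 3.03% of 21045 promoters of protein-coding genes held. None held the T-n-G repeat TTTGTTTG (2.14% of all promoters), the E-box CACGTG that forms the core of lysosomal CLEAR elements (7.91%), the AP-1 word TGACTCA (4.69%), the PU.1 word GAGGAAGT (3.15%) or the palindromic NRF1 word (1.34%). The ETS word occurred in Atg101, 26 bases before its start, and in 5.20% of all promoters. The CCAAT box occurred in 1 of the 9 genes, Nbr1, against 42.7% of all genes with a promoter entry. It lay in both Nbr1 promoters, 2 of the 11, against 38.5% of all promoters. A missing word says only that these letters are not in this window.

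Every one of the 10 genes had a peak in both replicates over its body and 5 kb around it (95% exact binomial interval 69.2 to 100%). Over all protein-coding genes, 96.6% had one in replicate 1, 83.0% in replicate 2 and 82.7% in both. The last share was 87.6% when olfactory and vomeronasal receptor genes (Olfr and Vmn) were left out, so the count says little about these genes. A shared peak was found at 8 of the 10 (80.0%, interval 44.4 to 97.5%), against 63.5% of all genes and 67.7% without Olfr and Vmn genes. The interval is wide and the difference was not tested. Atg13 and Atg101 lacked one. The pooled density of peaks was 2.81 per 10 kb over the members in replicate 1 (95% exact Poisson interval 2.35 to 3.34, counting error only), against 2.69 over all genes. In replicate 2 it was 0.497 per 10 kb (0.315 to 0.746), against 0.520 over all genes. The median density per gene was 3.91 per 10 kb over the members in replicate 1, against 3.06 over all genes, and 0.493 in replicate 2, against 0.616, so the replicates lay on opposite sides of the median gene.

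Close to the start of the gene, within 1 kb on either side, replicate 1 had a peak at all 10 members and replicate 2 at 8, the exceptions being Sqstm1 and Calcoco1. Over all genes the shares were 83.0% in replicate 1 and 62.7% in replicate 2, and 61.5% had a peak there in both, as 8 of the 10 members did (interval 44.4 to 97.5%). For Rb1cc1, whose strand the files used here do not give, either end was accepted. A shared peak at the start was found at 5 members, Ulk2, Rb1cc1, Nbr1, Optn and Tax1bp1 (interval 18.7 to 81.3%), against 44.0% of all genes. Without Olfr and Vmn genes, 47.1% of genes had a shared start peak and 65.8% had a start peak in both replicates. All 8 replicate 2 start peaks overlapped a replicate 1 peak by at least 1 bp, and the 3 that were not called shared lay at Ulk1, Atg13 and Atg101. In each case the share over all genes lay within the interval of the members' share. Intervals from 10 chosen genes are wide, so this says little about the members.

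**Figure D1:**
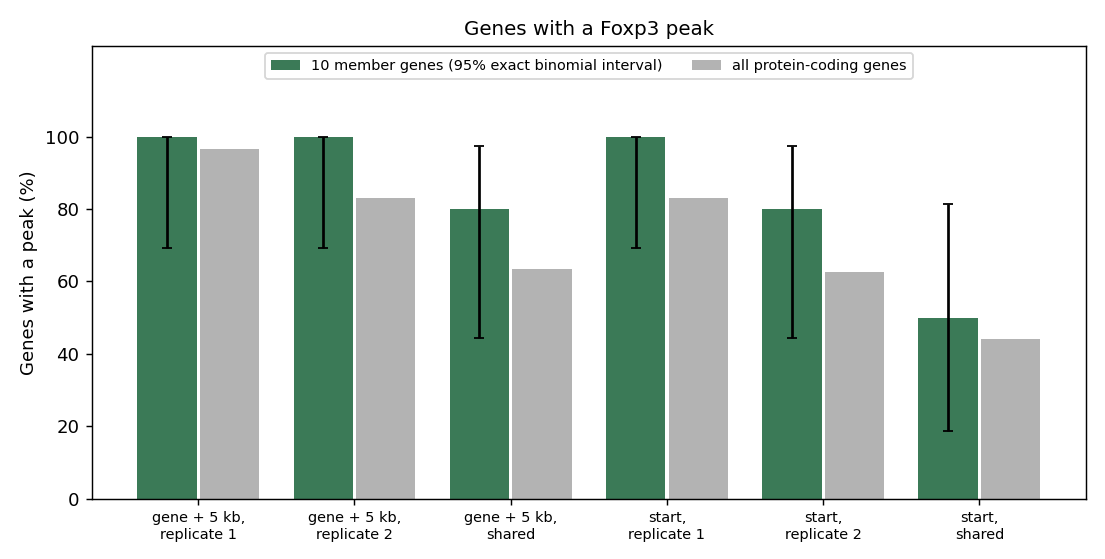
Percent of genes with a Foxp3 peak over the gene and 5 kb or within 1 kb of a start, in each replicate and as a shared peak, for the 10 member genes (green, with 95% exact binomial intervals) and all protein-coding genes (grey). The grey value lies inside the green interval in each of the 6 pairs, for example 80.0% against 63.5% for shared peaks over the gene and 5 kb. Intervals from 10 chosen genes are wide, so this is not a test of a difference.

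The start peaks differed widely in strength among the 10 genes. The median fold enrichment of the strongest start peak was 12.8 in replicate 1 over 10 members, against 10.3 over 17944 genes with such a peak. In replicate 2 it was 4.80 over 8 members, against 5.48 over 13567 genes. The members thus lay above the median gene in one replicate and below it in the other. Of the 8 members with a start peak in both replicates, 3 (37.5%, interval 8.52 to 75.5%) were at or above the median of such genes in both, against 33.5% of all genes with both. They were Ulk2, Rb1cc1 and Tax1bp1.

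**Figure D2:**
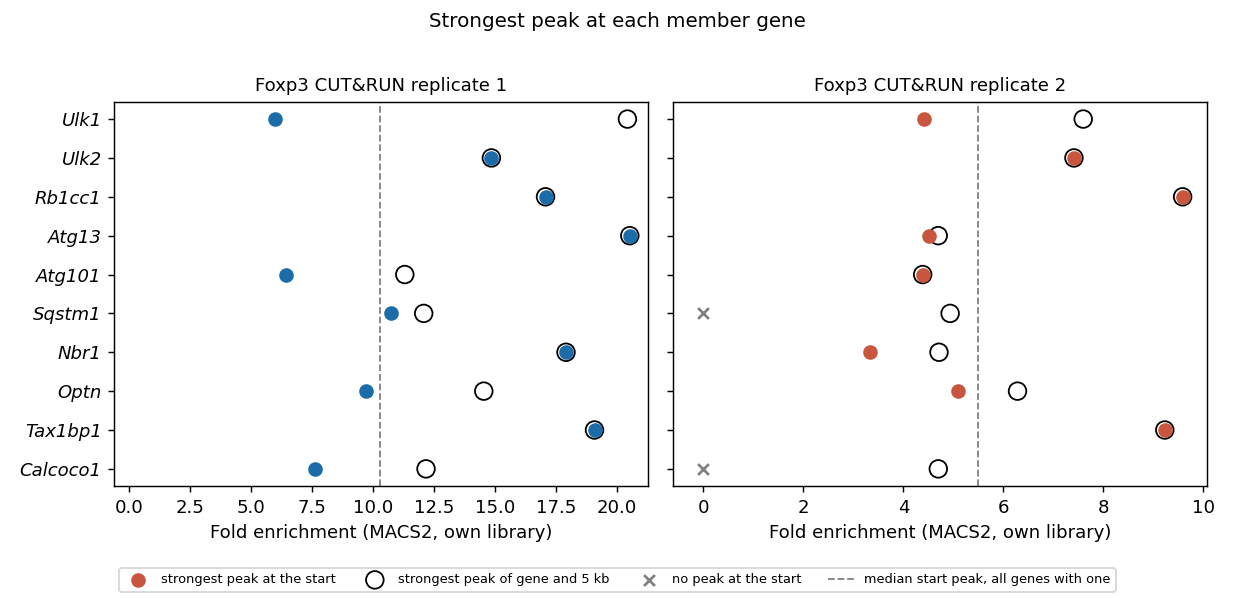
Fold enrichment of the strongest peak within 1 kb of a start (filled) and of the strongest peak over the gene and 5 kb (open circles) for each member gene, replicate 1 left and replicate 2 right on separate scales. A cross marks no start peak and the dashed line is the median over all genes with one, 10.3 in replicate 1 and 5.48 in replicate 2. Ulk2, Rb1cc1 and Tax1bp1 lie right of the line in both panels.

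Ulk1 and Ulk2 encode the protein kinases at the head of the pathway, and their sites were arranged differently. Ulk2 (gene ID 29869, chr11:61775598-61855334, minus strand) had a single broad peak at its start in each replicate, 969 bp long in replicate 1 and 1104 bp in replicate 2. The folds were 14.9 (replicate 1) and 7.41 (replicate 2), a mean of 11.1 ± 5.26 (SD, n = 2), on pileups of 99 and 49 fragments. These were the strongest peaks of the Ulk2 region in both replicates, and 78.1% and 85.9% of genes with a start peak had an equal or lower fold. The common stretch of the pair was 920 bp, and it spans the whole promoter sequence shown above. The gene is 79.7 kb long, and the rest of its region held 12 further peaks in replicate 1, with folds of 3.17 to 8.46, and 1 in replicate 2, with a fold of 3.93, and none of these was shared.

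Ulk1 (gene ID 22241, chr5:110784489-110810120, minus strand) had weak peaks at its start and stronger ones elsewhere. Replicate 1 had a pair of start peaks, with folds of 5.96 and 4.48 and summits 357 bp after and 140 bp before the start. Replicate 2 had 1 broader peak of 633 bp with a fold of 4.41, whose summit lay 324 bp after the start. Only 18.5% of genes with a start peak in replicate 1, and 24.7% in replicate 2, had an equal or lower fold.

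The strongest Ulk1 site of replicate 1 lay inside the gene, 1745 bp after the start, with a fold of 20.4 and a pileup of 141 fragments, the highest pileup among the 130 peaks. Replicate 2 had a peak 1623 bp after the start, with a fold of 5.09 and a pileup of 40, and the pair was shared over 396 bp (chr5:110808130-110808525; mean fold 12.8 ± 10.8, SD, n = 2). The strongest Ulk1 site of replicate 2 was another one, in the flank beyond the far end of the gene, with folds of 11.3 in replicate 1 and 7.60 in replicate 2. That pair lies at an end of Pus1, a pseudouridine synthase gene, and over the long non-coding RNA gene Gm26515, so it could not be assigned to Ulk1. The gene table used here gives no exons, so whether a site inside a gene is exonic or intronic was not determined.

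Rb1cc1, Atg13 and Atg101 encode the partners of the kinases. Rb1cc1 (gene ID 12421, chr1:6214634-6276375) encodes FIP200, the scaffold of the complex, and its lower-coordinate end carried the highest replicate 2 fold of all 23 member peaks. The folds there were 17.1 (replicate 1) and 9.58 (replicate 2), a mean of 13.3 ± 5.29 (SD, n = 2), on pileups of 115 and 50 fragments. Of genes with a start peak, 86.6% and 98.1% had an equal or lower fold. This was the only replicate 2 peak of the Rb1cc1 region, and its summit lay 151 bp inside the gene, whereas that of replicate 1 lay 146 bp outside. The 8 other replicate 1 peaks had folds of 3.44 to 5.55, and none overlapped a replicate 2 peak.

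Atg13 (gene ID 51897, chr2:91674612-91710597, minus strand) encodes the adaptor that links the kinases to the scaffold, and its start showed a large gap between replicates. Replicate 1 had 2 peaks there, with folds of 20.5 and 8.13 and summits 245 bp before and 114 bp after the start. Replicate 2 had 1 peak of 858 bp that overlapped both, with a fold of 4.52 and a pileup of 22. The strongest folds were thus 20.5 in replicate 1, with 94.6% of genes equal or lower, and 4.52 in replicate 2, with 27.9% equal or lower (mean 12.5 ± 11.3, SD, n = 2). The peaks before the start lay 15 bp (replicate 1) and 24 bp (replicate 2) from the end of Harbi1, a transposase-derived gene, so they could not be assigned to Atg13 alone. In the gene body, overlapping peaks that were not called shared lay near the far end, with folds of 4.69 and 4.70.

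Atg101 (gene ID 68118, chr15:101284301-101290947, plus strand) encodes the protein that stabilises Atg13, and it is the shortest of the 10 genes at 6.65 kb. Its start peaks were weak in both replicates, with folds of 6.43 (replicate 1) and 4.39 (replicate 2), a mean of 5.41 ± 1.44 (SD, n = 2). Their summits were close together, 86 bp and 65 bp after the start, and 22.0% and 24.4% of genes had an equal or lower fold. Stronger replicate 1 peaks lay 2762 bp after the start, with a fold of 9.84, and in the flank inside the neighbouring gene Smim41, with a fold of 11.3. Neither had a counterpart in replicate 2, which listed no other peak in the region.

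**Figure D3:**
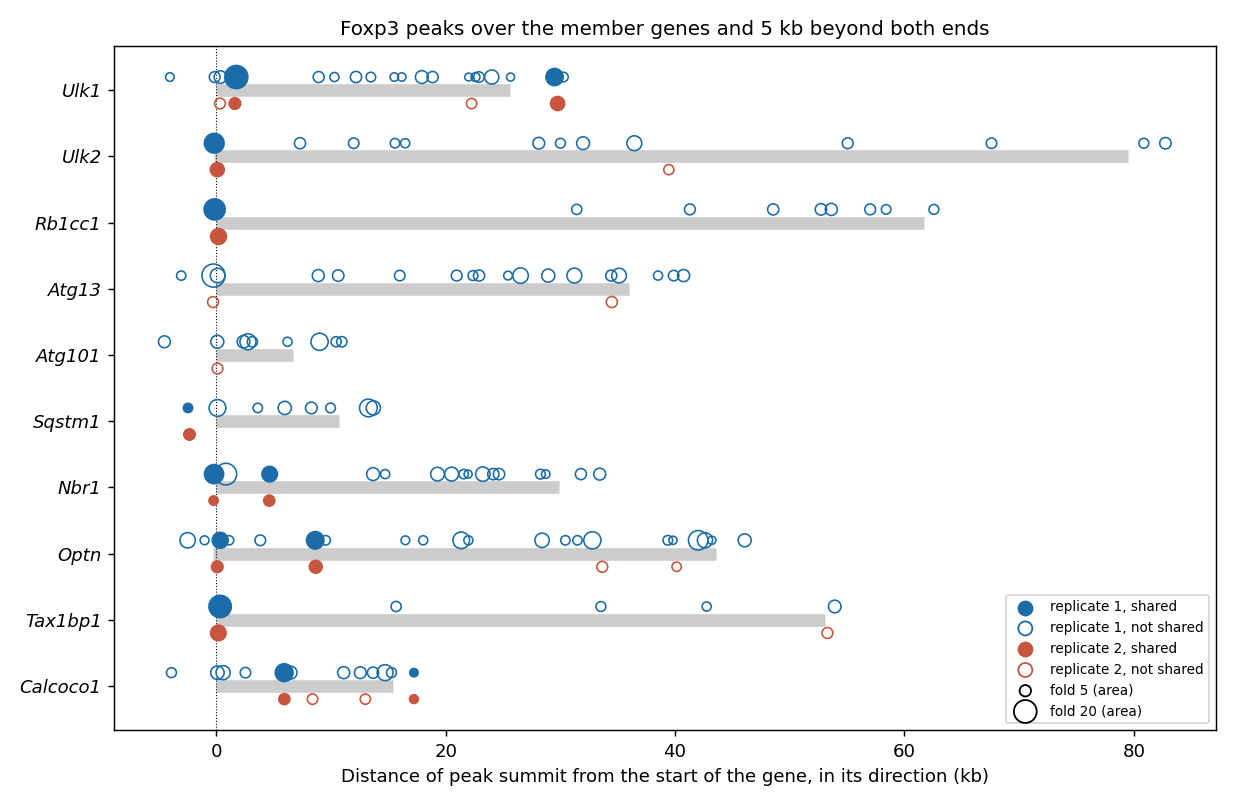
Position of every peak summit over the 10 member genes and 5 kb beyond both ends, in kb from the first start in the direction of the gene (for Rb1cc1, from its lower-coordinate end). Grey bars are genes, blue marks replicate 1 (130 peaks), red marks replicate 2 (23 peaks), area scales with fold enrichment and filled marks are shared. Shared peaks gather at the start in Ulk2, Rb1cc1 and Tax1bp1, and lie away from it in Sqstm1 and Calcoco1.

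Among the cargo receptors, Tax1bp1 carried the strongest start site and Sqstm1 and Calcoco1 had none in replicate 2. Tax1bp1 (gene ID 52440, chr6:52713692-52766780, plus strand) encodes a ubiquitin-binding receptor that also restrains inflammatory signalling. Its folds at the start were 19.1 (replicate 1) and 9.23 (replicate 2), a mean of 14.2 ± 6.97 (SD, n = 2), on pileups of 75 and 46 fragments. Of genes with a start peak, 92.0% and 97.2% had an equal or lower fold. The pair was shared over 492 bp (chr6:52713708-52714199), which takes in both annotated starts of the gene. The rest of the region was sparse, with 4 further replicate 1 peaks of folds 3.17 to 6.08 and 1 replicate 2 peak of 4.52, and the density of 0.793 peaks per 10 kb in replicate 1 was the lowest of the 10 genes.

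Optn (gene ID 71648, chr2:5020521-5064399, minus strand) encodes optineurin, a receptor for damaged mitochondria and bacteria. It was the member with the most replicate 1 peaks, 21, of which 2 were shared. At the start the folds were 9.71 (replicate 1) and 5.09 (replicate 2), a mean of 7.40 ± 3.27 (SD, n = 2), and 45.7% and 40.5% of genes with a start peak had an equal or lower fold. The second shared site lay inside the gene, 8627 bp after the start in replicate 1 and 8675 bp in replicate 2, with folds of 11.6 and 6.28. In replicate 2 this inner site was the strongest of the region, while in replicate 1 a peak 42020 bp after the start was stronger, with a fold of 14.5 and no counterpart in replicate 2.

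Nbr1 (gene ID 17966, chr11:101552107-101581951, plus strand) encodes a ubiquitin-binding receptor of aggregates and peroxisomes. The strongest start peak of replicate 1 had a fold of 17.9, with its summit 286 bp after the second annotated start, and replicate 2 listed nothing there. The start peak that was shared lay before the first start, with folds of 14.1 in replicate 1 and 3.34 in replicate 2. The replicate 2 value was at or above that of only 5.14% of genes with a start peak, on a pileup of 16 fragments, with a −log10 q of 3.61. Its summit lay 81 bp from the end of Brca1, a DNA repair gene, so the site could not be assigned to Nbr1. A further shared site lay inside the gene, 4107 bp and 4069 bp after the second start, with folds of 9.18 and 4.71.

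Sqstm1 (gene ID 18412, chr11:50200152-50210820, minus strand) encodes p62, the best known receptor of ubiquitin-tagged aggregates. Replicate 1 had a broad peak of 867 bp at its start, with a fold of 10.8 and a pileup of 65 fragments, and 53.5% of genes with a start peak had an equal or lower fold. Replicate 2 listed no peak there. The only replicate 2 peak of the region lay upstream, 2359 bp before the start, with a fold of 4.94 and a pileup of 35. Replicate 1 had a weaker peak at that place, 2467 bp before the start, with a fold of 3.30 and a pileup of 20, and the pair was shared over 185 bp (chr11:50213135-50213319). The strongest replicate 1 peak of the region, with a fold of 12.1, lay beyond the far end of the gene inside Mrnip, a DNA repair gene.

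Calcoco1 (gene ID 67488, chr15:102706777-102722178, minus strand), a receptor for parts of the endoplasmic reticulum and Golgi, likewise had start peaks in replicate 1 alone. Their folds were 7.63 and 6.93. Its main shared site lay inside the gene, 5918 bp after the start in replicate 1 and 5935 bp in replicate 2, with folds of 12.2 and 4.70 (mean 8.44 ± 5.29, SD, n = 2) and pileups of 57 and 24. These were the strongest peaks of the region in both replicates. A second shared site in the flank was weak in both, with folds of 2.69 and 2.96. Calcoco1 had 1.57 peaks per 10 kb in replicate 2, the highest density of the 10 genes, although none of its 4 peaks lay at the start.

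The 12 shared pairs of the members were 5 at starts, 4 elsewhere inside genes and 3 in flanks. They made up 52.2% of the 23 replicate 2 peaks (95% exact binomial interval 30.6 to 73.2%), against 36.2% of replicate 2 peaks over all gene regions. They made up 9.23% of the 130 replicate 1 peaks (4.86 to 15.6%), against 6.66% over all gene regions. The median fold of the pairs was 11.9 in replicate 1 and 5.09 in replicate 2, and over all 31253 shared pairs it was 8.99 and 4.69. Replicate 2 had the higher fold in 2 member pairs, the flank sites of Sqstm1 and Calcoco1 (16.7% of 12), against 9.98% of all shared pairs.

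**Figure D4:**
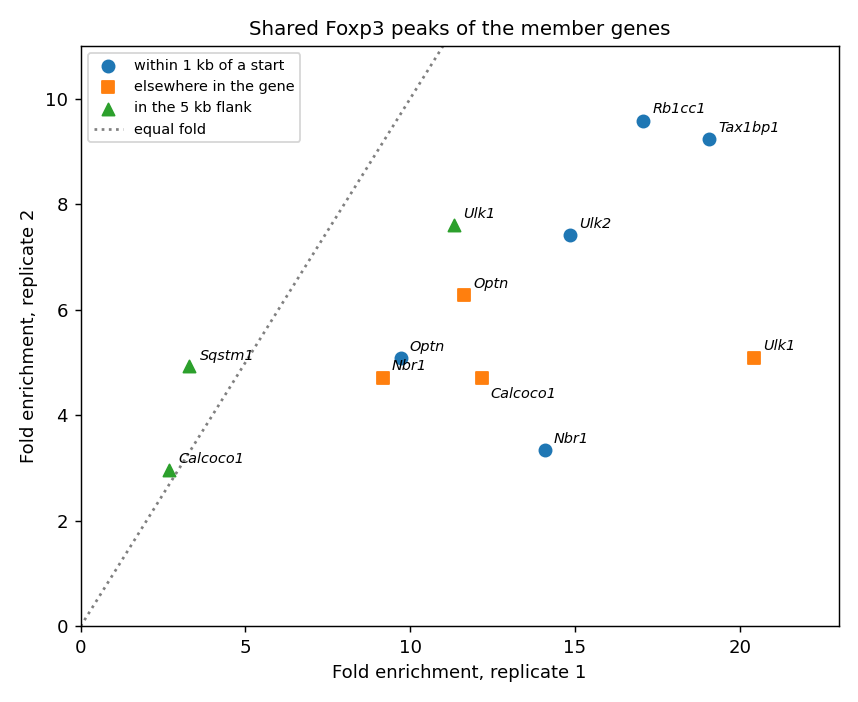
Fold enrichment in replicate 1 against replicate 2 for the 12 shared peak pairs of the member genes, by place (circles, within 1 kb of a start; squares, elsewhere in the gene; triangles, in the 5 kb flank), with the line of equal fold. Rb1cc1 and Tax1bp1 are highest in replicate 2, at 9.58 and 9.23, and the Sqstm1 and Calcoco1 flank sites lie above the line.

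Peaks at member starts had a higher median length and a higher median fold than the other member peaks, with a small difference in fold in replicate 2. In replicate 1 the 16 start peaks had a median fold of 8.92 and a median length of 291.5 bp, the 90 peaks elsewhere inside genes had 4.50 and 161.5 bp, and the 24 flank peaks had 4.44 and 180.5 bp. The 16 include a peak of fold 3.70 at the higher-coordinate end of Rb1cc1, where either end was accepted. They also include an Optn peak that reached the 1 kb window with its summit 1024 bp before the start. In replicate 2 the 8 start peaks had a median fold of 4.80 and a length of 562.5 bp, the 11 inside peaks had 4.52 and 291 bp, and the 4 flank peaks had 4.73 and 205 bp. Over all genes, start peaks had median folds of 6.99 in replicate 1 and 5.10 in replicate 2 and lengths of 284 bp and 458 bp. Other peaks of gene regions had folds of 4.76 and 3.88 and lengths of 167 bp and 225 bp. The strongest peak of the region lay at the start in 5 of 10 members in replicate 1 (against 43.2% of all genes with a peak) and in 4 of 10 in replicate 2 (against 55.6%). At the limit of the window, the last 1 kb inside it held 5 replicate 1 peaks with folds of 2.81 to 5.59 and 1 replicate 2 peak of 7.60. The first 1 kb outside it held 5 replicate 1 peaks with folds of 2.71 to 5.94 and 1 replicate 2 peak of 4.01.

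Other genes around the same steps of autophagy are set beside the members, of which 8 of 10 had a start peak in both replicates, as had 61.5% of all genes. Differences between these lists were not tested, and either end was accepted for genes without a strand. Genes that regulate Ulk1 had one in 14 of 14 cases, led by Traf6, a ubiquitin ligase (folds of 16.4 in replicate 1 and 7.25 in replicate 2), and Prkaa1, a catalytic subunit of the energy sensor AMPK (14.8 and 7.12). Prkaa1 had no shared start peak. Genes of the Tbk1 kinase, which phosphorylates cargo receptors, and its partners had one in 5 of 6, led by the adaptor gene Tank (14.8 and 9.82) and Tbk1 itself (28.2 and 6.40). Other cargo receptors had one in 14 of 16, led by Ccpg1, a receptor of the endoplasmic reticulum (16.8 and 7.85), and Ncoa4, the ferritin receptor (21.2 and 6.87).

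Further down the pathway, Vps34 complex genes had a start peak in both replicates in 7 of 8 cases, and the best placed were Rubcn (21.9 and 5.50) and the Beclin-binding gene Bcl2 (11.8 and 5.88). Bcl2 had no shared start peak. LC3 conjugation genes had one in 14 of 16, led by the conjugating enzyme genes Atg3 (19.3 and 7.64) and Atg10 (14.3 and 7.07). Genes of Atg9 and Atg2 lipid transfer had one in 8 of 10, led by the phosphoinositide-binding Wdr45b (17.4 and 6.04) and Wipi2 (11.2 and 8.23). A shared start peak was found at 5 of 10 members, against 44.0% of all genes. In the further lists it was found at 9 of 14 regulators of Ulk1, 3 of 6 genes of Tbk1 and its partners, 12 of 16 other cargo receptors, 4 of 8 Vps34 complex genes, 12 of 16 LC3 conjugation genes and 6 of 10 genes of Atg9 and Atg2 lipid transfer.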

How the data were processed

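CUT&RUN peak lists of 2 Foxp3 libraries were used. Peaks had been called by the authors on each library alone with MACS 2.1.1.20160309, per the file headers, at a q-value cutoff of 0.01, with no control library and with duplicates kept. Sites cut with any antibody, or DNA amplified many times, can therefore be listed. Software named in the submitters' processing notes is CASAVA 1.4, with build mm10. What aligned the reads is not given in the sources used. The deposited pileup is a signal, in fragments over the summit, without scaling for sequencing depth. The fold enrichment given by the authors is a ratio to background in the same library, genome-wide or over 10000 bp. Deposited −log10 p-values and q-values rank peaks within a list. Depth was 33294105 and 34898401 fragments, and the smallest listed pileup was 10 in replicate 1 and 13 in replicate 2, so weaker sites are not seen.

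Gene positions, strands and promoters came from RefSeq tables of GRCm38.p6, whose coordinates are those of mm10. Starts came from the promoter table, and both gene ends stood in for them in genes without an entry. Of the 21631 protein-coding genes, 17274 had an entry. A gene was called when a peak overlapped its window. Overlaps were computed in Python 3.11.15 with pandas 2.3.3 and intervals with scipy 1.17.1, and the overlap code was checked on simulated peaks. Members and lists were chosen with earlier results of these data known, so no set test was run and counts stand beside those of all genes. The 10 members were always named, and of each further list the 2 genes with the highest mean percentile of start fold. No second group was analysed, so there was no test between groups, and the spread between the 2 replicates may be technical. Intervals cover counting error only. Alternatives changed the peaks used, the windows, the overlap and the replicates.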

Additional observations from a re-analysis of the deposited data

How the results depend on the processing

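Of the 10 members, the count with a peak in both replicates over the gene and 5 kb was 9 or 10 under all alternatives run but one. With peaks of fold at least 5 it was 5 (52.3% of all genes), the count with a shared peak was 5 (39.5%) and the count with a start peak in both was 4 (37.6%). The members with a start peak in both were then Ulk2, Rb1cc1, Optn and Tax1bp1. With replicate 1 held to as many peaks as replicate 2, start peaks in both were found at 6 members by fold (49.1% of all genes) and 7 by −log10 q (53.8%). Without replicate 1 and without replicate 2 the counts ranged from 8 to 10 at starts (62.7% and 83.0% of all genes) and were 10 over the regions (83.0% and 96.6%). With an overlap of 1 bp, 73.9% of replicate 2 member peaks counted as shared, against 61.1% of those of all gene regions, each counted once per gene. Density per 10 kb was 1.25 in replicate 1 and 0.151 in replicate 2 with peaks of fold at least 5 (1.33 and 0.130 over all genes), and the median over members was 3.91 in replicate 1 and 0.493 in replicate 2 (3.06 and 0.616 over all genes). Among genes with a strand in the promoter table, an alternative chosen after seeing the data, 7 of 9 members had a start peak in both (61.1% of such genes). Ranked by depth-scaled pileup in place of fold, the mean percentile of Tax1bp1 was 74.4 in place of 94.6, of Optn 28.9 in place of 43.1, of Atg13 39.5 in place of 61.3, of Ulk1 40.5 in place of 21.6 and of Atg101 33.8 in place of 23.2. The cause of these shifts was not tested. No paired analysis was possible because both Foxp3 libraries belong to 1 group and no second group was analysed. The lack of IgG values limits every site.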

Other observations

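The promoters of the 9 matched members held more CpG pairs than the typical promoter, with a median of 20 in 300 bases over 11 promoters (range 13 to 45), against 13 over 21045 promoters. Their share of G and C was close to the rest, with a median of 57%, against 56.7%. Replicate 1 peaks touched 10 of the 11 promoters and replicate 2 peaks 8 (72.7%), against 60.9% and 47.2% of all promoters. Ulk2 had the most CpG pairs, 45, and Optn the fewest, 13. These differences were not tested.

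Summits of the 12 shared member pairs lay a median of 115 bp apart, against 71 bp over all shared pairs. The closest were 4 bp apart in the Calcoco1 flank, 17 bp inside Calcoco1, 37 bp at the Nbr1 start and 38 bp inside Nbr1, and the widest was 297 bp at Rb1cc1.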
